A study of Carica papaya with 2 samples.

Results

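The genes described here are abundant transcripts of papaya (Carica papaya) leaf whose level was at least 4-fold higher in the library from freeze-thaw awakened material than in the control library. Members were chosen on the measured values themselves. A gene was kept when its mean over the 2 libraries was at least 50 FPKM (fragments counted per length of transcript and per size of the library), when it was above 0 in the control, and when log2(FPKM + 1) was higher by at least 2 after treatment, that is, in the treatment library. This rule gave 116 genes of 101199 in all, and of the 2719 genes with that minimum mean. The differences that chose the members are therefore given as a description, without a test.

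The study compared 1 control leaf library, labelled as without freeze-thaw awakening, with 1 leaf library labelled as with it. Per the labels' protocols, leaves were kept in a cytoprotective solution of dimethyl sulfoxide, glycerin, glycol and trehalose for 72 hours at 26 °C, cooled by 0.5 °C a day for 180 days to a final -60 °C and thawed. The temperatures, rate and number of days are given as stated there and do not match exactly. The same text stands on both records, so whether the control material was handled in any part of it is not known from the labels, nor are the cultivar, the age of the plants and the number of leaves or plants behind each library. Each group is 1 library, so replicate error is not known and no p-value is given below. Every difference describes these 2 libraries.

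Slow freezing draws water out of plant cells as ice forms between them, and thawing exposes the membranes to further damage. Trehalose and glycerin are widely used to protect membranes and proteins against drying and ice. In Arabidopsis, cold activates CBF transcription factors, which switch on protective proteins and enzymes of sugar synthesis, whereas the most abundant messages of a leaf usually encode parts of the photosynthetic machinery. The genes measured here bear only the names given by the transcript assembly. Names of this kind could not match those in the table of 48816 papaya RefSeq genes, and none did. Without an annotation of the contigs, no member can be assigned to any of these functions. For the same reason the leaf label could not be checked against marker genes. Contig sequences were not used here, and no sequence is shown.

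The deposited values of all genes summed to 765874 FPKM in the control and 663069 FPKM after treatment, and 76734 and 75277 genes were above 0. Read counts are not given, and library depth is therefore unknown. Neither the files nor the labels name the unit, which was read as FPKM. Fold changes between the libraries would be the same to a constant factor if the values were TPM, but comparisons of level between genes hold only for a unit scaled by length.

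In the control library the members were scattered over a wide range of moderate and low levels. Their lowest value was 1.65 FPKM, the median was 22.64 FPKM and the highest was 693.84 FPKM. In the treatment library the same genes started at 84.32 FPKM, with a median of 178.62 FPKM and a highest value of 3683.98 FPKM. The lowest member of the treatment library thus stood above the upper quartile of the members in the control, 46.22 FPKM. The minimum mean and the minimum difference fix most of that separation, since together they leave no room for a member at a low treatment level.

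**Figure D1:**
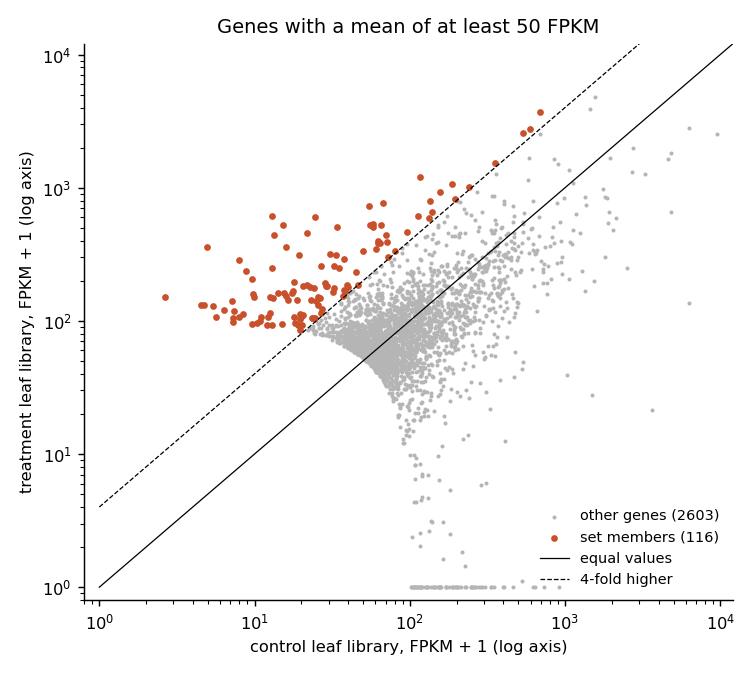
Each point is 1 gene whose mean was 50 FPKM or more, with the control library on the x axis and the treatment library on the y axis, both as FPKM + 1 on log axes. The 116 set members (orange) lie on or above the dashed 4-fold line by construction and reach from 1.65 to 693.84 FPKM in the control, while the 2603 other genes (grey) spread on both sides of the line of equal values.

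On the values as deposited, a difference of this size upwards was less common among abundant genes than the same difference downwards. At that minimum mean, 116 of 2719 genes (4.27%) were 4-fold or more above the control after treatment, and 210 (7.72%) were 4-fold or more below it. Of these 210 genes, 141 were still above 0 after treatment. No gene at this mean was at 0 in the control, so the condition that a member be above 0 there left out no gene. The median log2 difference of all 2719 genes was -0.11. Setting the sums of the 2 libraries equal multiplied treatment values by 1.16 and moved this median to 0.13. At least 4-fold higher were then 174 genes and at least 4-fold lower 186, so the 2 counts were nearly level. Scaling cannot move a gene at 0, so the 186 still held the 69 genes at 0 after treatment. Among genes above 0 in both libraries, the higher ones then outnumbered the lower ones. Scaling by the median ratio of the genes above 0 in both libraries, at any level, multiplied treatment values by 0.909. It moved the median log2 difference of the abundant genes to -0.27, further down than on the deposited values, and left 99 higher and 225 lower genes. The 99 were all members on the deposited values, and the 174 held all 116 members.

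Together the members held 0.813% of all FPKM in the control library and 6.28% of that of the treatment library. Their summed level went from 6230 to 41610 FPKM, a ratio of 6.68. A small number of genes carried much of the treatment sum. The highest member alone held 8.85% of it, the 3 highest held 21.6%, the 10 highest held 39.3% and the 20 highest held 54.0%.

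The member with the highest mean, TR23958|c0_g1, stood at 693.84 FPKM in the control and 3683.98 FPKM after treatment. It was already the gene in place 64 of the control and became the gene in place 3 of the treatment library, with a log2 difference of 2.41. The next member by mean was at 589.70 and 2746.01 FPKM and moved from place 82 to place 5. The member after it was at 534.56 and 2560.68 FPKM and moved from place 89 to place 6. These 3 were the only members among the 100 highest genes of the control library. The fourth member by mean, at 353.39 and 1531.36 FPKM, moved from place 191 to place 15, and the fifth, at 115.80 and 1210.08 FPKM, from place 883 to place 21.

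The top of the treatment library was in part made up of genes that stood far lower in the order of the control. Members held 3 of the 10 highest places of the treatment library, 13 of the 50 highest and 24 of the 100 highest. In the control they held 0, 0 and 3 of the same places. The 24 members among the 100 highest genes of the treatment library had a median place of 902 in the control. The lowest-placed of them was gene 11277 of the control at 11.99 FPKM and gene 58 of the treatment library at 613.65 FPKM. Over all 116 members the median place was 6909 in the control and 394 after treatment, and 106 were among the 1000 highest genes of the latter. The rule asks for a high mean and a much higher treatment value, so this climb in place follows in large part from the choice of members.

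**Figure D2:**
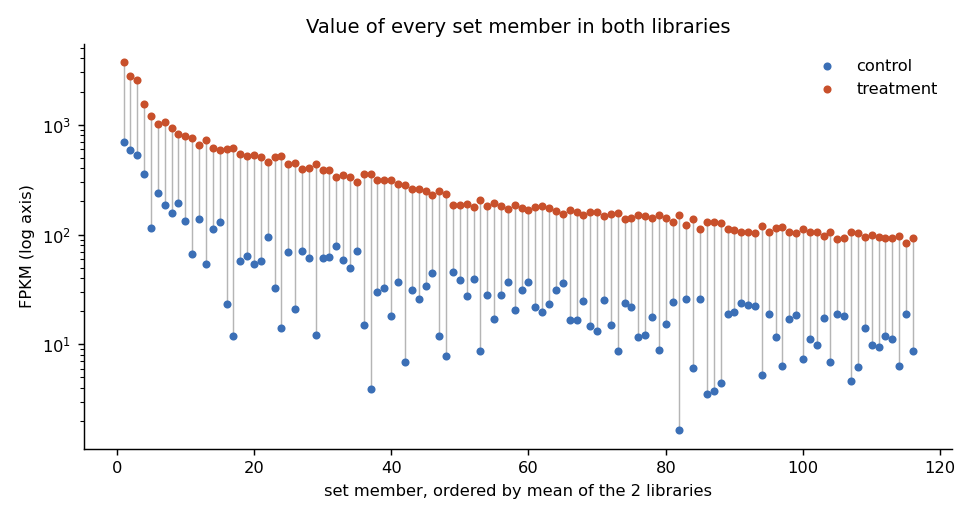
Each vertical line is 1 of the 116 set members, ordered from left to right by the mean of the 2 libraries, with its FPKM on a log axis in the control (blue) and after treatment (orange). The treatment values lie between 3683.98 and 84.32 FPKM, while the control values scatter between 1.65 and 693.84 FPKM.

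The log2 differences of the members ran from 2.02 to 6.18, with a median of 2.94 and quartiles of 2.41 and 3.53. In plain ratios the median was 7.97 and the quartiles 5.49 and 12.4. Of the members, 37 lay between 2 and 2.5 on the log2 scale and 26 between 2.5 and 3. A further 32 lay between 3 and 4, 15 between 4 and 5, and 6 above 5. Genes were not set apart at the threshold, and a further 94 lay between 1.5 and 2. Just inside the threshold a gene went from 45.19 FPKM in the control to 185.86 FPKM after treatment, a log2 difference of 2.02. Just outside it another went from 23.97 to 98.53 FPKM, a log2 difference of 1.995 and a plain ratio of 4.11. By plain ratio, without the added 1, 127 genes at this minimum mean were at least 4-fold higher. The lowest mean among members was 51.24 FPKM, from 8.65 and 93.82 FPKM, and the nearest gene below the minimum mean was at 5.99 and 93.49 FPKM.

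**Figure D3:**
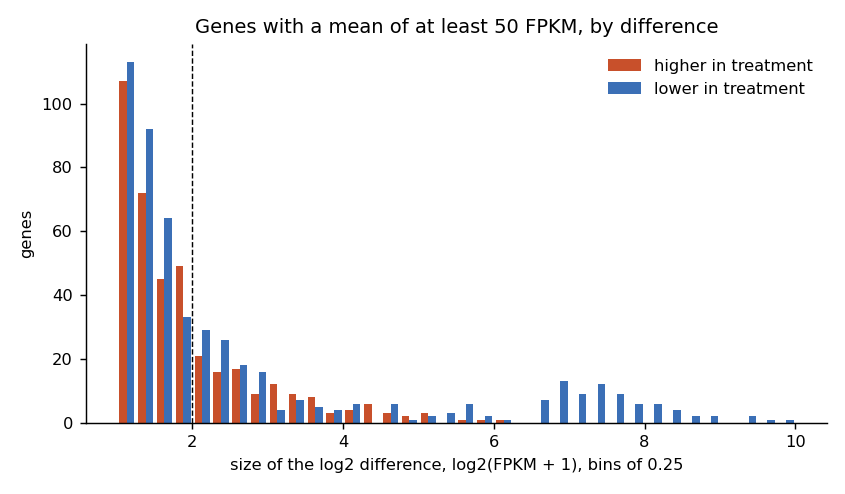
Bars count abundant genes (mean of 50 FPKM or above) in steps of 0.25 of the size of their log2(FPKM + 1) difference, orange for genes higher and blue for genes lower after treatment; the dashed line marks the threshold of 2. Higher genes lie on both sides of the threshold without a gap, though their count falls from 49 in the last step below it to 21 in the first above it. None lies beyond 6.25, while 75 lower genes differ by 6 or more, of which 69 are at 0 after treatment.

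The member with the largest difference was TR45642|c0_g1, whose value was 3.92 FPKM in control leaf and 356.87 FPKM after treatment, a log2 difference of 6.18 and a ratio of 91.0. The second was at 1.65 and 149.74 FPKM, the lowest control value of any member. The third was at 11.99 and 613.65 FPKM, a ratio of 51.2. The sixth by difference was at 12.28 and 441.34 FPKM, a ratio of 35.9, and a member at 23.39 FPKM in the control stood at 605.80 FPKM, a ratio of 25.9. The size of the largest of these depends on the pseudocount. With 0.1 in place of 1, TR45642|c0_g1 differed by 6.47 on the log2 scale, and with 5 by 5.34.

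The widest differences were found at low control values, which the rule itself in part brings about. A gene at 10 FPKM in the control must reach 90 FPKM after treatment to have the minimum mean, a log2 difference of 3.05, so no member with a lower control value could have a smaller one. The 22 members below 10 FPKM in the control had differences from 3.20 to 6.18, with treatment values from 93.82 to 356.87 FPKM. The other 94 members had a median difference of 2.64 and reached 3683.98 FPKM. Among the 13 members at 100 FPKM or more in the control, the median was 2.26 and the highest was 3.37. The level at which a value rests on few reads could be judged only roughly. At 1 to 8 FPKM, ratios of the 2 libraries piled up most at 1.23. Among genes at 5 to 10 FPKM in the control, that ratio held 1.32 times as many genes as the ratios around it, against 0.957 times at 10 to 20 FPKM and 1.16 times at 20 to 50 FPKM, so the excess did not fall steadily with level. What part counting error has in the differences of the 22 members below 10 FPKM was not tested.

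The set took a larger share of the genes at higher levels. It held 55 of 1723 genes with means of 50 to 100 FPKM (3.19%) and 28 of 620 genes at 100 to 200 FPKM (4.52%). At 200 to 500 FPKM it held 24 of 292 genes (8.22%), and at 500 FPKM or more 9 of 84 genes (10.7%). Genes at least 4-fold lower also took their largest share at the highest level, with 13 of 84 genes (15.5%), against 123 of 1723 (7.14%) at the lowest. The median log2 difference of the members was 3.14 at 50 to 100 FPKM and 2.26 at 500 FPKM or more.

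The members need not be as many separate transcripts as they are genes. The assembler groups genes that share sequence into a component, and the 116 members lay in 109 components. There were 5 components with 2 members and 1 with 3. In 1 of the components with 2, the members were at 66.29 and 762.42 FPKM and at 29.70 and 314.36 FPKM in the control and treatment library, ratios of 11.5 and 10.6. In another they were at 115.80 and 1210.08 FPKM and at 20.72 and 185.66 FPKM, ratios of 10.4 and 8.96. Both members of the third such component reached nearly the same treatment level, 334.46 and 333.71 FPKM, from 79.05 and 49.33 FPKM.

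Genes that shared a component with a member, but were not members, were mostly higher after treatment too. At a mean of 5 FPKM or more there were 35 such genes, in 19 components. Of these, 33 were higher and 2 lower after treatment, with a median log2 difference of 1.51. At least 2-fold higher were 24 of the 35 (68.6%), against 11.2% of all 17190 genes with that mean, and 1 was at least 2-fold lower. As a nearer comparison, components with a gene of at least 50 FPKM but no member were taken, leaving out the highest gene of each. Of their 773 other genes, 112 (14.5%) were at least 2-fold higher and 175 at least 2-fold lower, with a median log2 difference of 0.01. Both groups of components were chosen by the rule, for holding a member or for holding none, which in part sets the contrast between them. Every member was left out beside the 35 genes, but only the highest gene in each comparison component. Genes of 1 component share sequence, and reads may be divided among them, so the 35 genes are not independent of the members.

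Some of these genes matched their member closely in ratio. A gene at 1.36 FPKM in the control and 68.71 FPKM after treatment, a ratio of 50.5, shared a component with the member at 11.99 and 613.65 FPKM, whose ratio was 51.2. A gene at 4.22 and 68.32 FPKM, a ratio of 16.2, stood beside a member at 6.24 and 103.52 FPKM, a ratio of 16.6. Others did not follow their member. In 1 component a gene was at 98.80 and 99.99 FPKM, while the member beside it went from 133.07 to 788.89 FPKM. In another a gene was at 50.02 and 47.36 FPKM beside a member at 6.97 and 105.53 FPKM. The gene that was at least 2-fold lower, at 18.03 and 1.37 FPKM, shared a component with 2 members, which were at 21.79 and 179.81 FPKM and at 18.74 and 111.44 FPKM.

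The highest gene of the whole treatment library belonged to this neighbourhood without being a member. It went from 1563.01 FPKM, place 21 of the control, to 4802.12 FPKM, a ratio of 3.07. The member in the same component was at 155.73 and 924.16 FPKM, a ratio of 5.93. In a further component 1 member at 353.39 and 1531.36 FPKM stood beside 3 genes that were higher by ratios of 1.91, 2.34 and 2.61, the most abundant of them going from 852.13 to 1629.59 FPKM.

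The component with the most such genes had 18 genes, of which 12 had a mean of at least 5 FPKM and 3 were members. All 12 were higher after treatment and 11 of them by at least 2-fold. Its members were at 54.04 and 524.50 FPKM, at 27.48 and 189.97 FPKM, and at 26.13 and 122.69 FPKM. Its most abundant gene, at 280.20 and 501.64 FPKM, had the smallest log2 difference, 0.84. Without this component, 16 of 26 genes beside members (61.5%) were at least 2-fold higher, with a median log2 difference of 1.37.

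**Figure D4:**
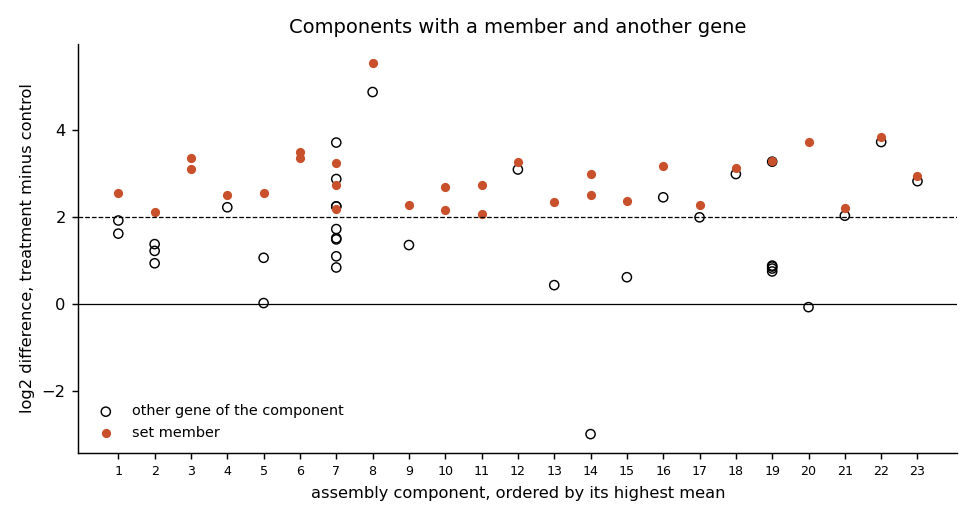
Each column is 1 of the 23 assembly components that hold a set member and at least 1 further gene with a mean of at least 5 FPKM, ordered by the highest mean in the component, and the y axis is the log2(FPKM + 1) difference, treatment minus control. Members (orange) lie above the dashed threshold of 2 by construction, and in 21 of the 23 components every gene, members and others (open circles), lies above 0.

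The number of contigs assembled for a gene was a property that the rule did not use. Of the 116 members, 74 (63.8%) had 1 contig and 42 (36.2%) had 2 or more, up to 19. Among the 2603 other genes with the same minimum mean, 48.1% had 2 or more contigs. Members fell below the others at the lowest level, by the widest gap, and at the highest, and lay above them at the levels between. At 50 to 100 FPKM, 20 of 55 members (36.4%) had 2 or more contigs, against 55.6% of the other 1668 genes. At 100 to 200 FPKM it was 42.9% of members and 37.0% of the others, and at 200 to 500 FPKM 33.3% and 31.7%. At 500 FPKM or more it was 2 of 9 members (22.2%) and 25.3% of the others. The median log2 difference was 2.94 for members with 1 contig and 2.90 for those with more. Among the 2603 other genes it was -0.42 with 1 contig and 0.08 with more, so abundant genes with 1 contig outside the set stood lower after treatment.

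Abundant genes that were at least 4-fold lower but still above 0 after treatment were assembled mostly as 1 contig. Of these 141 genes, 23 (16.3%) had 2 or more contigs, against 36.2% of the members. With the genes at 0 after treatment included, it was 57 of 210 (27.1%), so the contrast with the members rests in large part on leaving those genes out. Among the 141, the share was below that of the members at each level, with 14 of 79 genes at 50 to 100 FPKM and 6 of 30 genes at 100 to 200 FPKM. In size of difference, the members had a median of 2.94 upwards, against 2.67 downwards for the 141 genes still above 0 and 3.75 downwards for all 210, so the order depends on the genes at 0. The members had medians of 22.64 FPKM in their lower and 178.62 FPKM in their higher library, the 141 genes 22.07 and 158.07 FPKM, and all 210 genes 11.78 and 161.06 FPKM. The largest difference was 8.88 among the 141 and 9.84 among the 210, against 6.18 for the members. The sets were both chosen by a difference of at least 2, and the contrasts between them were not tested.

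**Figure D5:**
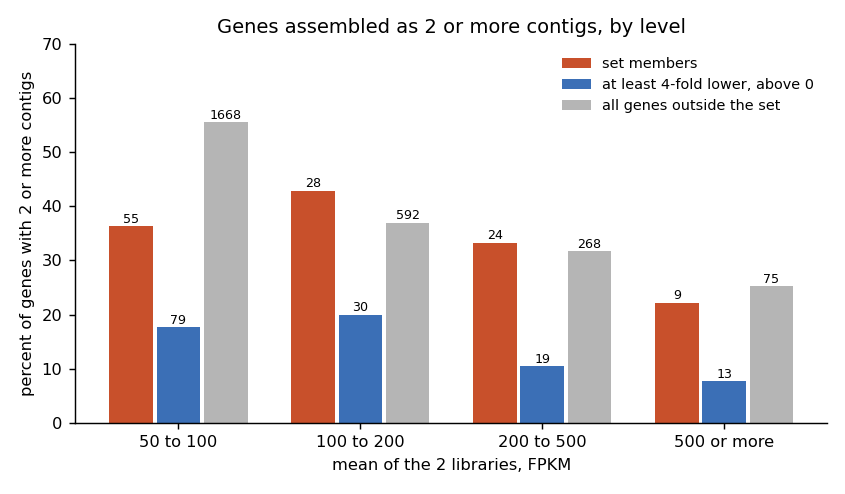
Bars give the percent of genes that were assembled as 2 or more contigs, by the mean FPKM of the 2 libraries, for the set members (orange), for genes at least 4-fold lower but above 0 after treatment (blue) and for all genes outside the set (grey, which include the blue); the number over each bar is the number of genes. Members range from 22.2% to 42.9%, and the lower genes start at 7.69% and lie below the members at each level. The members fall below the grey bar by most at 50 to 100 FPKM, 36.4% against 55.6%. At 100 to 200 and at 200 to 500 FPKM they lie above it.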

How the data were processed

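Per the labels' protocols, leaf RNA was isolated on columns (NucleoSpin RNA Plant) and sequenced from stranded mRNA libraries. Read conversion with bcl2fastq 2.17 and abundance estimation with RSEM 1.2.19 are named in the submitters' processing notes. No assembler, annotation or scaling between libraries is stated there. The values deposited by the authors were read as FPKM, since they are mostly not whole and do not sum to the same total.

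Both files list the same 156240 contigs. Dropping the contig part of each name gave 101199 genes in 81733 components. All contigs of a gene carried the same value, so each gene was used once. Differences are treatment minus control of log2(FPKM + 1) without further scaling, a scale that shrinks differences of low genes. Other genes of a component were counted at a mean of at least 5 FPKM. No test across genes was made, since there is 1 library in each group.

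The members were chosen with earlier results of these data known. Only 2 genes are named, the member with the highest mean and the member with the largest difference. Tables were made with Python 3.11.15, pandas 2.3.3 and numpy 2.4.6 and figures with matplotlib 3.10.9. The rule was tested on simulated data for all 101199 genes at made-up depths. It found 100 of 100 genes altered 8-fold, 0 of 100 altered 2-fold and 0 of 2514 unaltered genes. Only counting noise was simulated, with no variation between samples, and both planted folds lie well away from the 4-fold limit. Real depths are unknown too, so these numbers do not carry over and give no rate of false members. Alternatives were other pseudocounts, scalings, minimum means and thresholds, genes at 0 in the control let in, 1 gene per component and each contig as listed.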

Additional observations from a re-analysis of the deposited data

How the results depend on the processing

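The median log2 difference of all genes at the minimum mean changed sign, from -0.11 to 0.13, with equal sums, and was -0.27 and -0.26 with the other scalings. That of the members was above 0 under each pseudocount and scaling. This outcome was fixed by their choice at a log2 difference of at least 2, since the scalings moved it by only -0.138 to 0.208. A pseudocount cannot change its sign. Pseudocounts of 0.1 and 5 gave 125 and 109 members, shares of the treatment sum of 6.5% and 6.15%, and medians of 2.99 and 2.70 for the members on deposited values. Equal sums gave 174 members, 144 of them with a control value of at least 10 FPKM, 5.78% of genes passing, 8.27% of the sum and a median of 3.15. Scaling by the median ratio and by a trimmed mean (factors 0.909 and 0.913) gave 99 and 100 members, 5.47% and 5.49% of the sum and medians of 2.81 and 2.81. A minimum mean of 20 FPKM gave 265 members in 244 components, 3.43% of genes and 7.55% of the sum. A minimum of 100 FPKM gave 61 members in 56 components, 57 with a control value of at least 10 FPKM, 6.12% of genes and 5.24% of the sum. With no minimum there were 705 members in 629 components, 0.81% of genes and 8.46% of the sum. A log2 threshold of 1 gave 389 members in 359 components, 367 with a control value of at least 10 FPKM, 14.3% of genes and 15.7% of the sum. A threshold of 3 gave 53 members in 51 components, 31 with such a control value, 1.95% of genes and 2.18% of the sum. With 1 gene per component 105 members held 5.60% of the sum. Counting contigs as listed gave 293, 248 of them with such a value, 3.53% of contigs and 4.05% of the sum. Letting in genes at 0 in the control left all 116. Looser or stricter limits change the counts by their construction. The view without the component with most genes was chosen after seeing the data. No replicate could be left out. No paired analysis was possible because each group has 1 library. No read counts are given, so limits set by depth have no interval.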
